A study of Mus musculus with 15 samples.

Results

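Most of the genes described here encode nuclear subunits of the respiratory chain's complex III and complex IV and of ATP synthase. The set was all 44 gene symbols, of 24421 in the table, that begin with Uqcr, with Cox4 to Cox8 or with Atp5, together with Cyc1. Subunits with other symbols, such as Ndufa4, lie outside it. By known role, 9 belong to complex III, 18 to complex IV and 15 to ATP synthase, while Atp5s and Atp5sl carry the ATP synthase name but are not subunits. Cox7a2l, a factor that joins complex III to complex IV, was counted with complex IV. The RNA came from whole kidneys of wild-type mice on day 14. UUO_Si (n = 6) was obstruction of a ureter (unilateral ureteral obstruction, UUO) on a diet that held a silicon-based agent, UUO (n = 6) was the same obstruction on normal diet, and sham (n = 3) was sham surgery on normal diet. No sham group on the silicon diet was among the samples, so UUO_Si and sham differed in both surgery and diet. The labels give no sex or age and do not say whether replicates were separate animals, so p-values measure the spread between these samples, which may be technical.

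Complex III takes electrons from ubiquinol and passes them to cytochrome c, and complex IV (cytochrome c oxidase) passes them on to oxygen. Both pump protons out of the mitochondrial matrix, and ATP synthase makes ATP as the protons flow back. The kidney tubule, above all its proximal segment, is rich in mitochondria, since it reclaims most of what is filtered. Several subunits of complex IV have alternative isoforms from separate genes, often confined to muscle, lung or testis, and the ring of ATP synthase through which protons pass is built from a subunit c that 3 genes encode as the same mature protein. The mitochondrially encoded subunits (cytochrome b, COX1 to COX3, ATP6 and ATP8) were not analysed here.

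The libraries held 7754724 to 11465936 counts in UUO_Si, 11151023 to 15422613 in UUO and 5526642 to 8308121 in sham. Levels are CPM, that is counts scaled to a common library size. A gene was called where edgeR's quasi-likelihood test gave a p under 0.05 once adjusted over all 16752 genes tested. Of the 44 members 41 had enough counts to be tested. Cox6a2, Cox7b2 and Cox8c did not. Before the results, 4 libraries stood apart: UUO_Si replicate 6, UUO replicates 5 and 6 and sham replicate 3 had counts in 828 to 1281 of 1456 olfactory and vomeronasal receptor genes, against 101 to 166 in the other 11. The sample codes also ran in series that never crossed groups, with UUO_Si replicate 6 and UUO replicates 5 and 6 in series of their own, and what the codes mark is not given in the labels. The markers of kidney were present, as 10 proximal tubule markers summed to 15488 to 18794 CPM in sham.

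Most of the set was lower in obstructed kidneys on either diet. In UUO_Si 34 of 41 tested members fell and 2 rose against sham, where 25.5% of all genes tested fell and 27.2% rose. In UUO 38 fell and 2 rose, against 26.4% and 27.5% of all genes. The members' median log2 fold change was -1.19 in UUO_Si and -1.29 in UUO, that is 2.28-fold and 2.44-fold lower, beside -0.04 over all genes in each comparison. In UUO_Si 36 members (87.8%) had levels that did not overlap those of sham, against 45.7% of all genes, and in UUO 38 members (92.7%) against 46.9%. These 2 comparisons share the sham libraries and are not independent of each other. Cox6b2 and Cox7a2l were the 2 that rose, and Atp5g2 was the only member called in neither direction in both comparisons against sham.

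**Figure D1:**
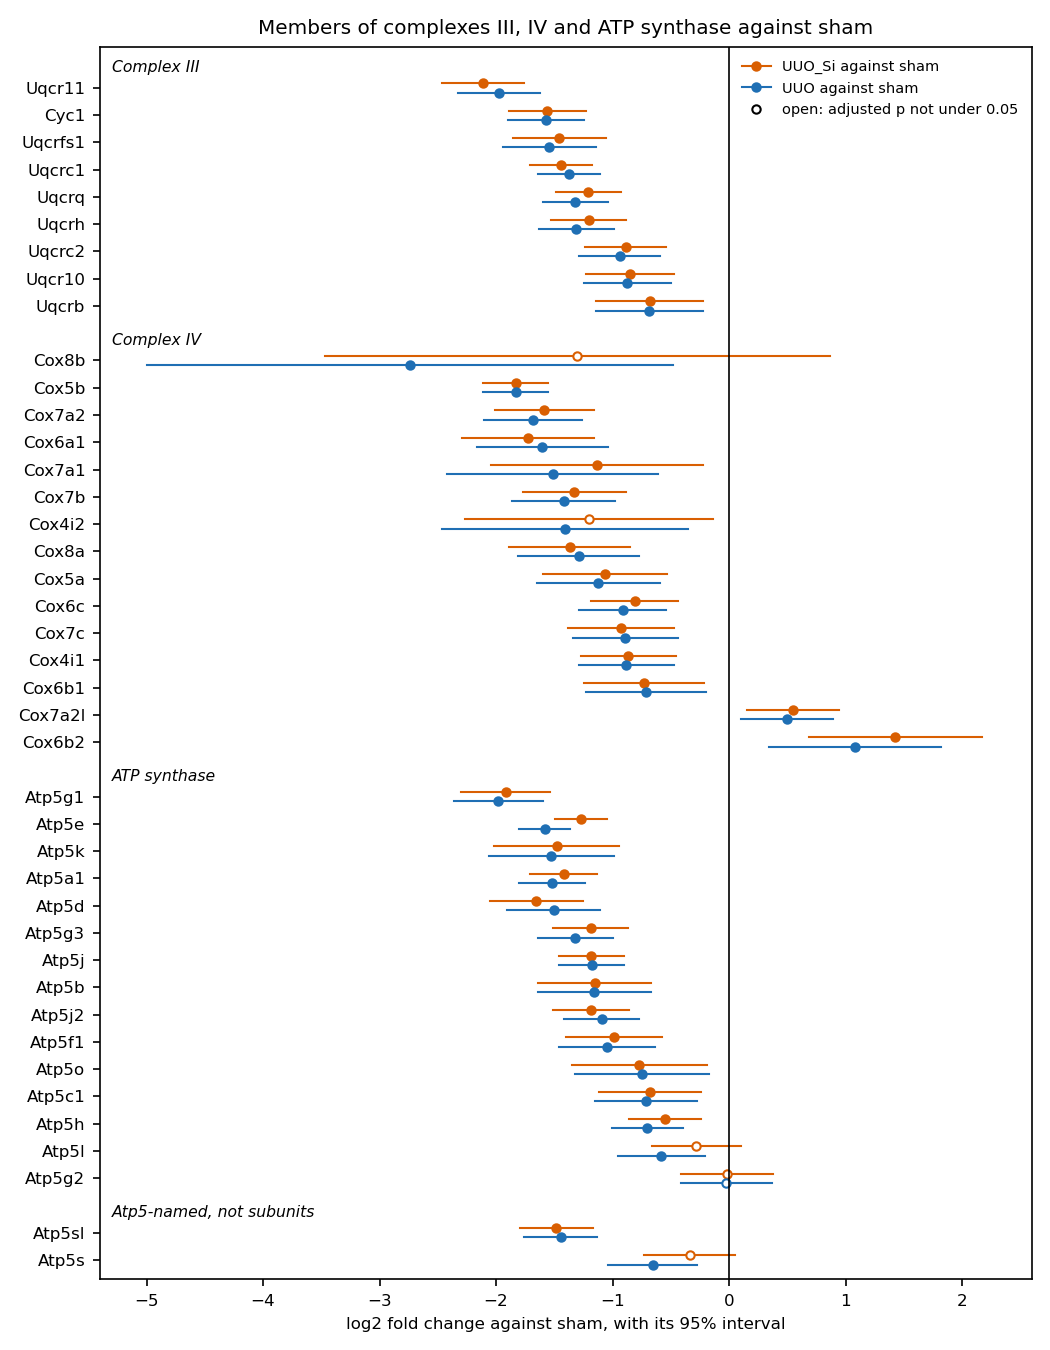
Log2 fold changes of the 41 tested members against sham, in UUO_Si (orange) and UUO (blue), with the unadjusted 95% interval of each and the genes grouped by complex. All points of complex III lie left of 0, while Cox7a2l and Cox6b2 in complex IV lie right of it and Atp5g2 lies at 0.

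All 9 complex III genes fell in both obstructed groups, with medians of -1.21 in UUO_Si and -1.32 in UUO. Uqcrc1, which encodes a core subunit and had the highest level of the complex in sham (CPM), lay at 86.9, 99.2 and 128 CPM (lowest, median, highest) in UUO_Si and 88.3, 108 and 120 CPM in UUO, against 295, 298 and 243 CPM in the 3 sham libraries. No obstructed library came near a sham library, and the log2 fold change was -1.44 ± 0.13 in UUO_Si and -1.37 ± 0.13 in UUO (SE; adjusted p = 5.62e-08 and 8.27e-08). Uqcrq, a small subunit at the membrane, gave 55.2, 77.8 and 90.4 CPM in UUO_Si and 60.8, 68.2 and 80.8 CPM in UUO, against 177, 164 and 179 CPM in sham, again without overlap (log2 fold change -1.21 ± 0.13 and -1.32 ± 0.13). Uqcr11, the smallest subunit of the complex in mammals, fell furthest. It lay at 22.3, 24.9 and 37.7 CPM in UUO_Si and 22.9, 30.1 and 36.7 CPM in UUO, against 116, 118 and 116 CPM in sham, 4.32-fold and 3.92-fold lower. Uqcrb, which helps to form the ubiquinone site, fell least, with 62.2, 97.0 and 135 CPM in UUO_Si and 68.1, 92.8 and 130 CPM in UUO, against 148, 157 and 154 CPM in sham. Its log2 fold change was -0.68 ± 0.22 and -0.69 ± 0.22 (adjusted p = 0.0145 and 0.0131), and its highest obstructed libraries came close to sham without reaching it. Uqcrb has 3 near-identical pseudogene copies and overlaps Gm10767 on the other strand, and Uqcr11 has 2 such copies. Part of the reads of both may therefore belong elsewhere. The genes of the 2 redox subunits encoded in the nucleus, Cyc1 (cytochrome c1, -1.56 ± 0.16 in UUO_Si and -1.57 ± 0.16 in UUO) and Uqcrfs1 (the Rieske iron-sulphur protein, -1.46 ± 0.19 and -1.54 ± 0.19), fell by similar amounts to Uqcrc1.

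Of the complex IV genes, the 10 that encode widely expressed subunits all fell on either diet, with medians of -1.20 in UUO_Si and -1.21 in UUO. Cox5b, which encodes a subunit on the matrix side, fell most of these. It lay at 93.1, 110 and 147 CPM in UUO_Si and 91.0, 116 and 128 CPM in UUO, against 438, 397 and 383 CPM in sham. The highest obstructed library was thus far below the lowest sham library, and Cox5b was 3.56-fold lower in each obstructed group (log2 fold change -1.83 ± 0.13 in both; adjusted p = 6.81e-09 in UUO_Si and 5.43e-09 in UUO). Cox6c, a small membrane subunit, had the highest sham level per length of all members, 725 CPM per kilobase of transcript, and fell less. Its levels were 144, 203 and 278 CPM in UUO_Si and 143, 192 and 242 CPM in UUO, against 375, 385 and 334 CPM in sham (log2 fold change -0.81 ± 0.18 and -0.91 ± 0.18). Cox6c has 2 near-identical pseudogene copies and overlaps Vps13b on the other strand, so part of its reads may belong elsewhere. Next in the order of sham levels per length came Atp5a1 at 653 ± 45.9, Atp5b at 483 ± 26.9 and Cox5b at 469 ± 33.2 CPM per kilobase (SD, n = 3), of which Atp5b and Cox5b differed by less than their spread.

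Cox4i1 and Cox4i2 encode alternative forms of subunit 4, and the Cox4i2 form is known from lung, from oxygen-sensing cells and from vascular pericytes. Cox4i1, the common form, lay at 99.9, 137 and 200 CPM in UUO_Si and 110, 133 and 183 CPM in UUO, against 268, 259 and 258 CPM in sham. It fell without overlap, by log2 fold changes of -0.86 ± 0.19 and -0.88 ± 0.19 (adjusted p = 0.00120 and 0.000943), though it overlaps Emc8 on the other strand. Cox4i2 rested on 3 to 14 counts per library in UUO_Si, 3 to 19 in UUO and 12 to 13 in sham. Its levels were 0.377, 0.881 and 1.17 CPM in UUO_Si and 0.241, 0.665 and 1.46 CPM in UUO, against 1.72, 1.92 and 2.46 CPM in sham, so that no obstructed library reached a sham library. The fall was called in UUO (-1.41 ± 0.50; adjusted p = 0.0245) and not in UUO_Si (-1.20 ± 0.50; adjusted p = 0.0546), and it was no longer called in UUO without the 4 libraries named above (-1.29; adjusted p = 0.0694) or without any 1 of the sham libraries. In UUO_Si it was called with DESeq2, limma-voom or only the 2 groups compared (adjusted p = 0.0244 to 0.0406), without UUO_Si replicate 6, and in fits without UUO replicate 1, 2 or 6, while in UUO the fit of only the 2 groups did not call it (0.0501). Cox4i2 made up 0.612% ± 0.119 of the summed subunit 4 level per length in UUO_Si and 0.573% ± 0.413 in UUO, against 0.802% ± 0.163 in sham (SD, n = 6, 6 and 3). The Cox4i2 to Cox4i1 log2 ratio differed from sham by -0.36 in UUO_Si and -0.69 in UUO (exact permutation p = 0.119 and 0.226), with overlapping groups. The low level of Cox4i2 beside Cox4i1 was thus found in every group, and no shift between the isoforms was detectable at this depth. Of 9 pericyte markers tested 4 rose in UUO_Si and 5 in UUO, where 27.2% and 27.5% of all genes did, and the others were not called. Their sum was 499 to 614 CPM in UUO_Si and 564 to 788 CPM in UUO, against 255 to 310 CPM in sham, and much of the difference was Pdgfrb, a growth factor receptor, at 249.7 to 296 CPM in UUO_Si and 246 to 398 CPM in UUO, against 62.5 to 73.2 CPM in sham. Their part in the Cox4i2 values was not tested.

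Cox6b1 and Cox6b2 encode forms of subunit 6B, which lies on the outer face of the complex, and Cox6b2 is best known from testis. Cox6b1 lay at 24.4, 38.1 and 61.5 CPM in UUO_Si and 28.3, 38.9 and 57.5 CPM in UUO, against 69.9, 66.2 and 65.7 CPM in sham. It fell without overlap, with log2 fold changes of -0.73 ± 0.24 and -0.71 ± 0.24 (adjusted p = 0.0187 and 0.0201), calls that were lost without sham replicate 1 (adjusted p = 0.0644 in UUO_Si and 0.0694 in UUO) and, in UUO, without sham replicate 2 (0.0529). Cox6b2 moved the other way, with 2.50, 5.06 and 5.55 CPM in UUO_Si and 1.85, 3.89 and 5.16 CPM in UUO, against 1.72, 1.44 and 2.08 CPM in sham. UUO_Si did not overlap sham, whereas the lowest UUO library lay inside the sham range. Cox6b2 rose 2.69-fold in UUO_Si and 2.12-fold in UUO (log2 fold change 1.43 ± 0.35 and 1.08 ± 0.35; adjusted p = 0.00258 and 0.0150), on 9 to 12 counts per sham library. In UUO the call was lost without sham replicate 2 (0.97; adjusted p = 0.0662). The Cox6b2 share of the summed subunit 6B level per length was 13.9% ± 5.65 in UUO_Si and 10.6% ± 4.53 in UUO, against 3.15% ± 0.601 in sham. Of 6 testis markers none had enough counts to be tested, and their sum was 0 to 1.17 CPM in UUO_Si, 0.161 to 1.49 CPM in UUO and 0.160 to 3.79 CPM in sham.

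Cox7a2, Cox7a1 and Cox7a2l encode related proteins of the subunit 7A family. Cox7a2 is the widely expressed subunit, Cox7a1 the heart and skeletal muscle form, and Cox7a2l (SCAF1) a factor that joins complex III to complex IV in supercomplexes. Cox7a2 lay at 15.1, 18.1 and 31.0 CPM in UUO_Si and 14.02, 18.1 and 25.3 CPM in UUO, against 63.8, 57.4 and 61.4 CPM in sham (log2 fold change -1.59 ± 0.20 and -1.68 ± 0.20). Cox7a2l lay at 59.7, 74.3 and 103 CPM in UUO_Si and 56.9, 70.0 and 95.9 CPM in UUO, against 57.3, 51.8 and 43.8 CPM in sham. The obstructed libraries were the higher ones, without overlap in UUO_Si and with overlap in UUO, and Cox7a2l rose 1.47-fold and 1.41-fold (log2 fold change 0.55 ± 0.19 and 0.50 ± 0.19; adjusted p = 0.0205 and 0.0321). In UUO that call was lost without the 4 libraries named above (0.24; adjusted p = 0.161), without UUO replicate 4, 5 or 6 or without sham replicate 2 or 3 (adjusted p = 0.0537 to 0.126), and in UUO_Si without sham replicate 3 (0.46; adjusted p = 0.0891). Cox7a2l has 1 near-identical pseudogene copy. Beside Cox7a2 the groups lay far apart. Per length, Cox7a2l made up 69.1% ± 2.38 of the sum of both in UUO_Si and 69.5% ± 2.36 in UUO, against 33.3% ± 2.95 in sham. Cox7a1 had 0.503, 1.83 and 3.08 CPM in UUO_Si and 0.888, 1.29 and 2.15 CPM in UUO, against 4.30, 2.24 and 5.68 CPM in sham. It fell, with overlap in UUO_Si and without it in UUO, by log2 fold changes of -1.14 ± 0.43 and -1.51 ± 0.43 (adjusted p = 0.0354 and 0.00657). In UUO_Si the call was lost without the 4 libraries named above (-1.04; adjusted p = 0.0584), without UUO_Si replicate 1, 2 or 3 (adjusted p = 0.0534 to 0.0579) and without sham replicate 1 (0.0977) or 3 (-0.82; 0.163).

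Cox8a, the common subunit 8, lay at 41.5, 60.8 and 107 CPM in UUO_Si and 49.5, 65.1 and 93.7 CPM in UUO, against 184, 172 and 156 CPM in sham (log2 fold change -1.37 ± 0.25 and -1.29 ± 0.25). Cox8b, its heart, muscle and brown fat form, had 0 to 33 counts per library in UUO_Si and 0 to 10 in UUO, against 17, 10 and 5 in sham. At these counts it was called lower in UUO (-2.74 ± 1.07; adjusted p = 0.0390) and not in UUO_Si (-1.30 ± 1.03; adjusted p = 0.301), where UUO_Si replicate 6 held 33 of the 43 counts. The call in UUO was lost without any 1 of UUO replicates 1 to 5 (adjusted p = 0.0566 to 0.0677) or without sham replicate 1 (0.171) or 2 (0.0953). Without the 4 libraries named above, Cox8b was called lower in UUO_Si as well (-3.14; adjusted p = 0.00231). Ucp1, the uncoupling protein that defines brown fat, was at 19.3 CPM in UUO_Si replicate 6 and at 0 to 0.199 CPM in the other UUO_Si libraries, at 0 to 0.662 CPM in UUO, and at 0.573, 6.55 and 1.89 CPM in sham. The 5 brown fat markers summed to 7.91 to 42.6 CPM in UUO_Si and 4.10 to 62.5 CPM in UUO, against 0.860 to 10.9 CPM in sham, none at 0 in a whole group. In the obstructed libraries other than UUO_Si replicate 6 most of the sum was Dio2, a thyroid hormone deiodinase, at 7.91 to 16.5 CPM in UUO_Si and 4.10 to 61.4 CPM in UUO, against 0.287 to 2.56 CPM in sham. Ucp1 itself was not called (0.17 ± 1.43 in UUO_Si and -3.45 ± 1.58 in UUO). The 5 fat cell markers had their highest sums in UUO_Si replicate 6 (146 CPM) and UUO replicate 6 (160 CPM). The part of brown fat and fat cell markers in the Cox8b values was not tested. Striated muscle markers summed to 4.62 to 11.9 CPM in UUO_Si and 4.39 to 16.8 CPM in UUO, against 24.0 to 47.4 CPM in sham, and heart markers to 7.25 to 16.0 CPM in UUO_Si and 6.47 to 12.3 CPM in UUO, against 21.03 to 26.9 CPM in sham. Of 3 heart markers tested Myh6, the cardiac alpha myosin, was the 1 that fell (-2.69 ± 0.41 and -2.78 ± 0.40), at 18.6, 22.2 and 12.1 CPM in sham, while Tnni3 (1.34 ± 0.64 and 1.19 ± 0.64) and Tnnt2 (0.03 ± 0.39 and -0.08 ± 0.39) were not called. Of 7 striated markers tested, Myh1, a fast myosin, fell in both obstructed groups (-5.34 ± 0.78 and -4.67 ± 0.72), Tnni2, a fast troponin, rose in both (1.76 ± 0.62 and 1.71 ± 0.62), and the other 5 were not called. Ckm, the muscle creatine kinase, had no count in UUO_Si. The part of muscle RNA in the values of Cox7a1 and Cox8b was not tested either.

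The 3 members too low to test are also forms known from muscle or testis. Cox6a2, the heart and muscle form of subunit 6A, had 5 counts over 6 UUO_Si libraries and 14 over 6 UUO libraries, against 15 over 3 sham libraries. Its common counterpart Cox6a1 lay at 29.8, 38.8 and 69.2 CPM in UUO_Si and 29.1, 41.5 and 67.8 CPM in UUO, against 155, 136 and 127 CPM in sham (log2 fold change -1.72 ± 0.27 and -1.60 ± 0.27). Cox7b2, known from testis, had 12 counts in UUO_Si, all in replicate 6, 11 in UUO and 7 in sham, all in replicate 3. Its counterpart Cox7b fell by -1.33 ± 0.21 in UUO_Si and -1.42 ± 0.21 in UUO. Cox8c, another testis form, had 1 count in all 15 libraries, in UUO replicate 5. Of 7 members with restricted forms, 4 were therefore tested, and only those 4 enter the counts above.

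**Figure D2:**
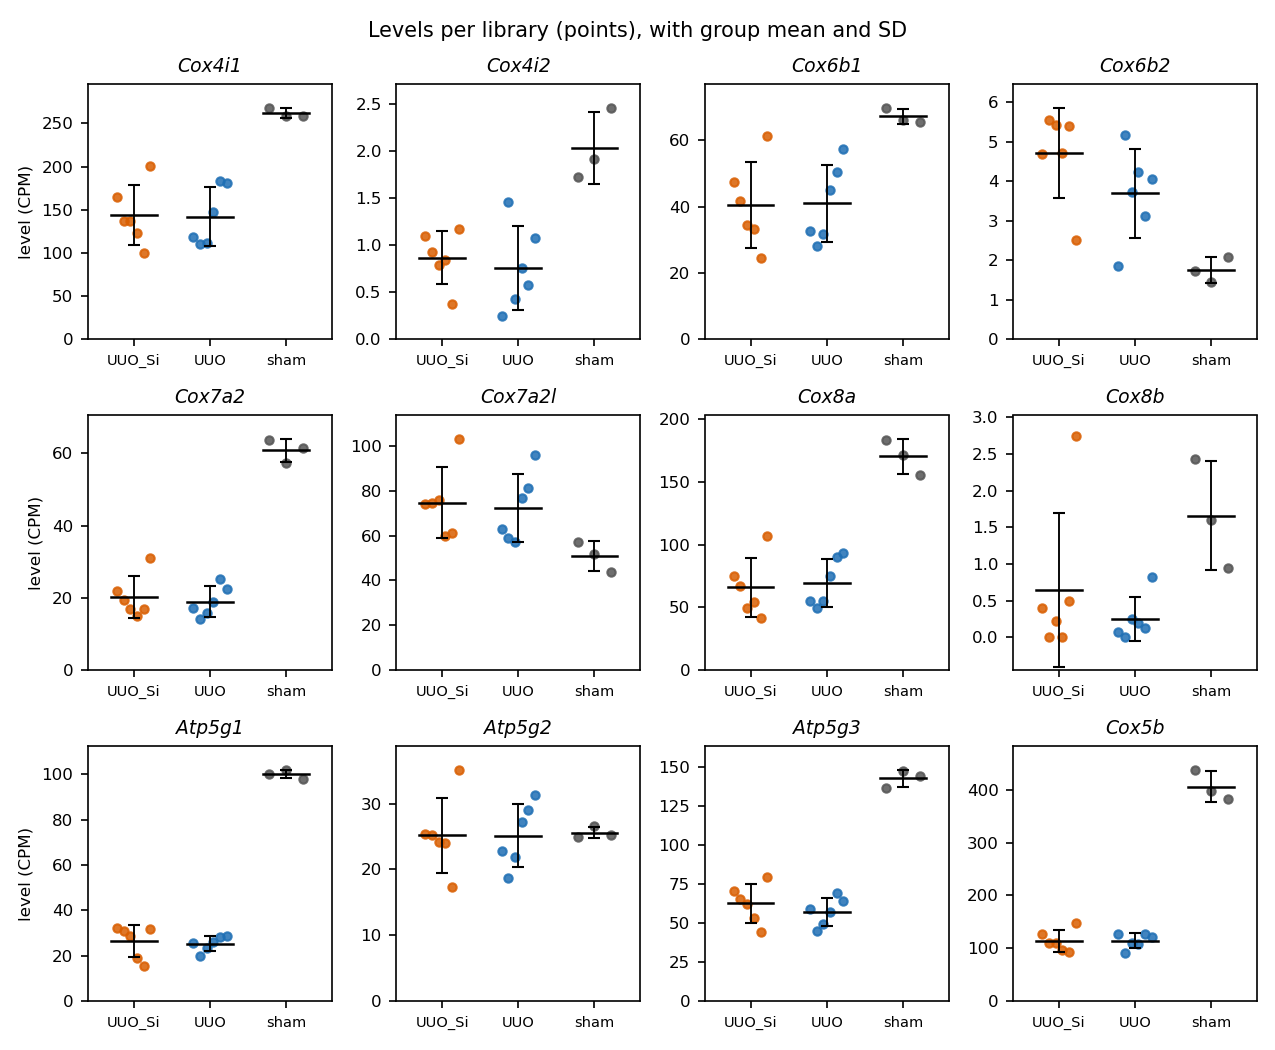
Levels (CPM, each axis from 0 except that of Cox8b) of 12 members, with a point per library, a bar at the group mean and error bars of 1 SD. Cox4i1, Cox6b1, Cox7a2, Cox8a, Atp5g1, Atp5g3 and Cox5b are lower in all UUO_Si and UUO libraries than in sham, Cox6b2 and Cox7a2l are mostly higher, and Atp5g2 overlaps sham.

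Among ATP synthase genes 13 of 15 fell in UUO_Si and 14 of 15 in UUO, with medians of -1.18 and -1.16. Atp5a1 and Atp5b, which encode the alpha and beta subunits that form the catalytic head, had the highest levels of the complex. Atp5a1 lay at 449, 610 and 734 CPM in UUO_Si and 467, 564 and 643 CPM in UUO, against 1733, 1600 and 1508 CPM in sham. The highest obstructed library was thus below the lowest sham library by a wide margin, and the fall was 2.67-fold and 2.87-fold (log2 fold change -1.42 ± 0.14 and -1.52 ± 0.14; adjusted p = 1.55e-07 and 6.09e-08). Atp5b lay at 302, 375 and 663 CPM in UUO_Si and 282, 394 and 555 CPM in UUO, against 946, 964 and 867 CPM in sham (-1.15 ± 0.23 and -1.16 ± 0.23). The other 3 genes of the head and its central stalk, Atp5c1 (gamma), Atp5d (delta) and Atp5e (epsilon), fell too, Atp5c1 the least at -0.68 ± 0.21 in UUO_Si and -0.71 ± 0.21 in UUO. The 4 genes of the outer stalk, which holds the head still, fell with medians of -0.88 and -0.90, and of these Atp5o (the OSCP subunit, -0.77 ± 0.27 in UUO_Si and -0.75 ± 0.27 in UUO) was no longer called without any 1 of the sham libraries (adjusted p = 0.0584 to 0.0730) or, in UUO, without UUO replicate 3 (0.0534). Of the 3 small subunits e, f and g, which shape the membrane part, Atp5k (e) and Atp5j2 (f) fell on either diet, and Atp5l (g) fell in UUO (-0.58 ± 0.18; adjusted p = 0.0110) and was not called in UUO_Si (-0.28 ± 0.18; adjusted p = 0.203). Without sham replicate 1 the call in UUO was lost (-0.53; adjusted p = 0.0518), and without the 4 libraries named above Atp5l was called lower in UUO_Si as well (-0.41; adjusted p = 0.0485). Atp5l has 9 near-identical pseudogene copies, the most of any member. Usmg5 and 2010107E04Rik, further membrane subunits whose symbols lie outside the set, were not called on either diet. Usmg5 was at -0.72 ± 0.30 in UUO_Si and -0.68 ± 0.30 in UUO (adjusted p = 0.0553 and 0.0662). For 2010107E04Rik the values were -0.52 ± 0.30 and -0.42 ± 0.30 (adjusted p = 0.163 and 0.257). Atp5sl, named Dmac2 in newer annotation and known in human cells as a complex I assembly factor, fell in both (-1.48 ± 0.15 and -1.45 ± 0.15). Atp5s was called lower in UUO (-0.66 ± 0.18; adjusted p = 0.00573) and not in UUO_Si (-0.34 ± 0.18; adjusted p = 0.131).

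The 3 genes of subunit c did not move together. Atp5g1 lay at 15.6, 29.9 and 32.0 CPM in UUO_Si and 20.02, 25.8 and 28.7 CPM in UUO, against 100.3, 102 and 98.1 CPM in sham. It fell furthest of all ATP synthase genes, 3.78-fold and 3.94-fold (log2 fold change -1.92 ± 0.18 and -1.98 ± 0.18; adjusted p = 1.42e-07 and 8.03e-08). Atp5g3 lay at 44.2, 63.9 and 79.7 CPM in UUO_Si and 45.2, 57.9 and 69.2 CPM in UUO, against 137, 148 and 144 CPM in sham (-1.19 ± 0.15 and -1.32 ± 0.15). Atp5g2 lay at 17.3, 24.6 and 35.2 CPM in UUO_Si and 18.7, 24.9 and 31.4 CPM in UUO, against 24.9, 26.5 and 25.2 CPM in sham. Its groups overlapped, and the log2 fold change was -0.02 ± 0.19 in both comparisons, with 95% intervals of -0.41 to 0.38 in UUO_Si and -0.42 to 0.37 in UUO. Per length of transcript, Atp5g2 made up 26.2% ± 1.88 of the summed subunit c level in UUO_Si and 27.7% ± 1.76 in UUO, against 12.9% ± 0.186 in sham. The share of Atp5g1 was 7.48% ± 1.01 and 7.76% ± 0.313, against 13.9% ± 0.445 in sham. These shares, and how far they differ between groups, depend on the transcript lengths taken, and those of Atp5g1 differ much in the annotation. Differences between groups in the log2 ratio of a pair of these genes do not depend on length. Atp5g1 and Atp5g2 have 2 near-identical pseudogene copies each.

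Ratios of 2 genes within a library do not depend on how libraries are scaled, and 7 pairs were compared in this way over 3 comparisons (log2 ratio of levels per length, 2-sided exact permutation test over libraries, Benjamini-Hochberg adjustment over the 21 tests). Against sham 4 pairs shifted on either diet. The Cox6b2 to Cox6b1 ratio was higher by 2.14 in UUO_Si and 1.74 in UUO, the Cox7a2l to Cox7a2 ratio higher by 2.17 and 2.19, the Atp5g2 to Atp5g3 ratio higher by 1.16 and 1.29, and the Atp5g1 to Atp5g3 ratio lower, at -0.76 and -0.66. Each of these 8 differences had exact permutation p = 0.0119, the smallest that 3 against 6 libraries can give, with adjusted p = 0.0313 and no overlap of the groups. A difference of 2.17 on this scale is a 4.49-fold higher ratio. The log2 ratio of Cox7a2l to Cox7a2 was 1.16 ± 0.162 in UUO_Si and 1.19 ± 0.159 in UUO, against -1.01 ± 0.194 in sham (SD). The pairs Cox4i2 to Cox4i1, Cox7a1 to Cox7a2 and Cox8b to Cox8a were not called against sham, with the Cox8b to Cox8a ratio at -1.08 in UUO_Si and -1.80 in UUO (exact permutation p = 0.393 and 0.0595). The calls were all lost without any 1 of the sham libraries (adjusted p = 0.0938), without UUO_Si replicate 2, 3 or 4 (0.0536 to 0.0938) and without the 4 libraries named above (0.175). With 2 sham libraries against 6 the smallest possible p is 0.0357, too high for these 8 differences to pass adjustment. Without the 4 libraries it is higher still. The losses without a sham library or without the 4 libraries thus follow from the number of libraries. The differences themselves kept their direction with these libraries left out. The Atp5g2 to Atp5g3 ratio was higher by 1.12 in UUO_Si and 1.24 in UUO without the 4 libraries.

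**Figure D3:**
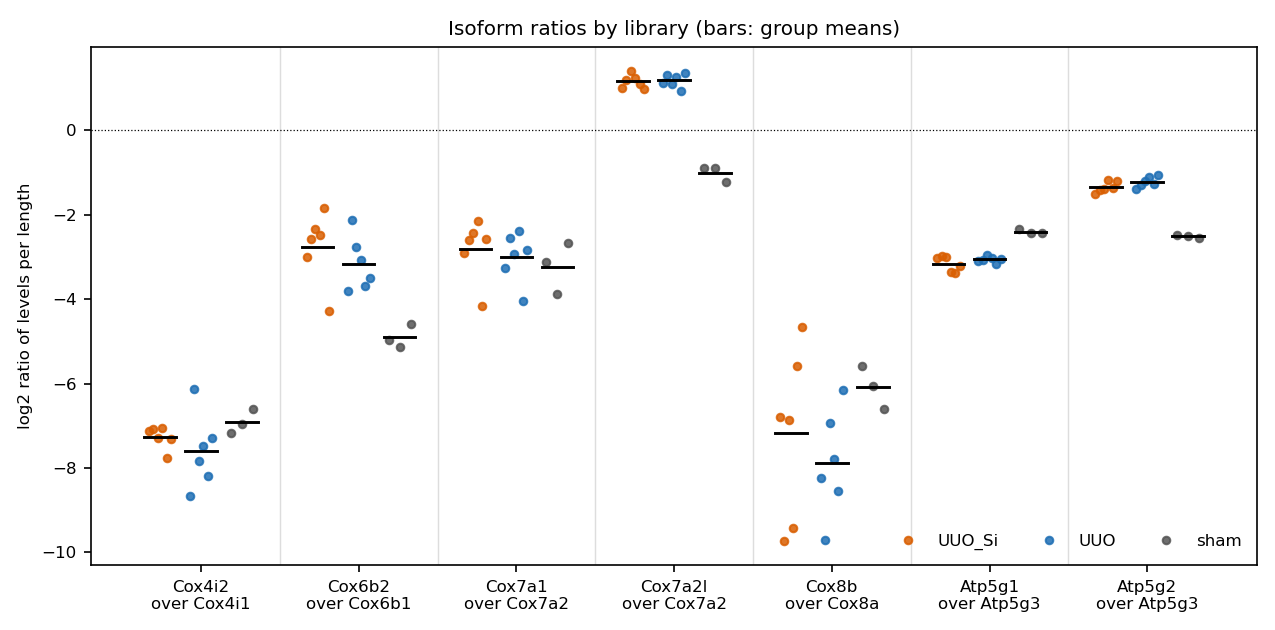
Log2 ratios of levels per length for 7 isoform pairs, with a point per library and a bar at each group mean (UUO_Si orange, UUO blue, sham grey). For Cox6b2, Cox7a2l and Atp5g2 every obstructed library lies above sham, for Atp5g1 every obstructed library lies below it, and the other 3 pairs overlap.

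Sequence upstream of these genes is shown for the subunit c genes and the Cox6b pair because their members moved apart. Of the 44 members 34 had an entry among RefSeq promoters (GRCm38.p6), 3 of them under a newer symbol, and the 250 bases before the RefSeq start were searched on both strands. In the sequences below, written 5′ to 3′ along the gene, capitals mark matches on either strand to CCAAT, to GCATGCGC (the core of the site of NRF1, a factor known to bind promoters of respiratory genes), to CCGGAAG (an ETS site) or to AAGATGGC (a YY1 site).
Atp5g1, chr11:96075632-96075881, minus strand: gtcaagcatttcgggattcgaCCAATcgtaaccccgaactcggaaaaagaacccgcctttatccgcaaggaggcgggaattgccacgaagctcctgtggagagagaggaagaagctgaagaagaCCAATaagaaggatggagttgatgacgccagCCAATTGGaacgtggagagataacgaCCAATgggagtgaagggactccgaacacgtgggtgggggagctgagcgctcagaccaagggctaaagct
Atp5g2, chr15:102671048-102671297, minus strand: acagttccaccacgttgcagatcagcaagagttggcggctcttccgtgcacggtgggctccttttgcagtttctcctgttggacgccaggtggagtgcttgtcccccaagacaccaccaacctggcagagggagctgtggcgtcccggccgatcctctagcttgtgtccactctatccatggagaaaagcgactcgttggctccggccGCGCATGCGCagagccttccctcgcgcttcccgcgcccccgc
Atp5g3, chr2:73911327-73911576, minus strand: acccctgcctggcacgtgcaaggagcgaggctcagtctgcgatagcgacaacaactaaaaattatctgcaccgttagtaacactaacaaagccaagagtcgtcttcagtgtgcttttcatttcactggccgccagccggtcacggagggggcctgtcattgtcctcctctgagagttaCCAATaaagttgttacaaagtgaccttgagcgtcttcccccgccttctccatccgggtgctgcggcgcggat
Cox6b1, chr7:30626115-30626364, minus strand: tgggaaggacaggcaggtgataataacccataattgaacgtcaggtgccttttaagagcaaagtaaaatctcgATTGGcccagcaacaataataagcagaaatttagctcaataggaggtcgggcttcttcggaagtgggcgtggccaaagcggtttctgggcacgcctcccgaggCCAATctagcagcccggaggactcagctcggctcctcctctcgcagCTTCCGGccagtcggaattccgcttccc
Cox6b2, chr7:4753095-4753344, minus strand: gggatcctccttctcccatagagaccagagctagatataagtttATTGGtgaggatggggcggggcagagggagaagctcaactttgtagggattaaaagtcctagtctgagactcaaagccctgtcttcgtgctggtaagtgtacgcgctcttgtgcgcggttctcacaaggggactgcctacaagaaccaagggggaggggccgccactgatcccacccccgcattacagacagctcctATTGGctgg
The Atp5g1 window held 4 CCAAT letters on the gene's strand, at 229 to 225, 126 to 122, 95 to 91 and 69 to 65 bases before the start, and 1 on the other strand, at 92 to 88, that overlaps the third. The Atp5g3 window held 1, at 72 to 68. The Atp5g2 window held none and had GCATGCGC on each strand, at 40 to 33 and 42 to 35 bases before the start, which overlap. In Cox6b1 there were a CCAAT on each strand and a CCGGAAG on the other strand at 28 to 22, and in Cox6b2 there were 2 CCAAT, both on the other strand. The windows of Cox7a2 and Cox7a2l held none of these letters.

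Over the 34 members with a window, 19 (55.9%) held CCAAT, against 37.5% of 27025 genes searched the same way. CCGGAAG stood in 8 (23.5%), against 7.83% of all genes, and AAGATGGC (a YY1 site) in Atp5j and Atp5sl (5.88%, against 1.83%). GCATGCGC stood in 4 members, Atp5g2, Atp5k, Atp5l and Cox6a1 (11.8%, against 2.56%). These 4 did not share a course. In UUO the log2 fold change was -0.02 for Atp5g2, -0.58 for Atp5l, -1.52 for Atp5k and -1.60 for Cox6a1. Letters in a window are a description and not a measured binding site, and genes can have starts other than the RefSeq start. In some members the start lies within 1000 bases of the start of a gene on the other strand. Among such neighbours Kin (beside Atp5c1) fell in both obstructed groups, Lrrc41 (beside Uqcrh) was called higher in both but not without sham replicate 2 (adjusted p = 0.0821 in UUO_Si and 0.0529 in UUO), and Haus1, Kctd2, Zmat5 and Gdf9 were not called.

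The silicon diet was compared with the normal diet in obstructed kidneys. None of the 41 members was called between UUO_Si and UUO, and none of all 16752 genes tested was (0%). At an unadjusted p under 0.05 there were 2 members, beside 626 (3.74%) of all genes. DESeq2 called 2 genes, neither of them a member, and limma-voom called 0. The members' median log2 fold change was 0.05, with 29 above 0 and 12 below (49.7% of all genes were below 0), and no member was free of overlap (0.203% of all genes were). The 2 members were Atp5e and Atp5s. Atp5e, the epsilon subunit at the foot of the catalytic head, lay at 22.7, 24.4 and 29.1 CPM in UUO_Si and 17.1, 19.7 and 22.7 CPM in UUO. The lowest UUO_Si library only just met the highest UUO library, and the log2 fold change was 0.31 ± 0.09 (unadjusted p = 0.00271, adjusted p = 0.999). Atp5s lay at 5.65, 7.35 and 9.04 CPM in UUO_Si and 4.88, 5.61 and 7.36 CPM in UUO (0.32 ± 0.15; unadjusted p = 0.0478, adjusted p = 0.999). Neither passed over all genes.

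Lack of a call does not show that the diets gave equal levels. For complex III the 95% intervals of the UUO_Si to UUO difference ran from -0.44 (Uqcr11) to 0.42 (Uqcrfs1) on the log2 scale, and for ATP synthase from -0.50 (Atp5o) to 0.61 (Atp5l). For complex IV they were wider, from -0.69 (Cox4i2) to 3.43 (Cox8b), because of the forms with few counts. Cox5b gave 0.00 ± 0.11 with an interval of -0.24 to 0.24, Cox4i1 0.02 ± 0.16 and Atp5a1 0.10 ± 0.11. No isoform ratio was called between the diets. The Cox7a2l to Cox7a2 ratio differed by -0.03 and the Atp5g2 to Atp5g3 ratio by -0.12 (exact permutation p = 0.775 and 0.123). Single libraries turned the members' median, which was -0.08 when UUO_Si replicate 6 was left out and 0.13 when replicate 5 was. Without the sample code series of UUO_Si replicate 6 and UUO replicates 5 and 6 it was 0.10, again with no call.

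**Figure D4:**
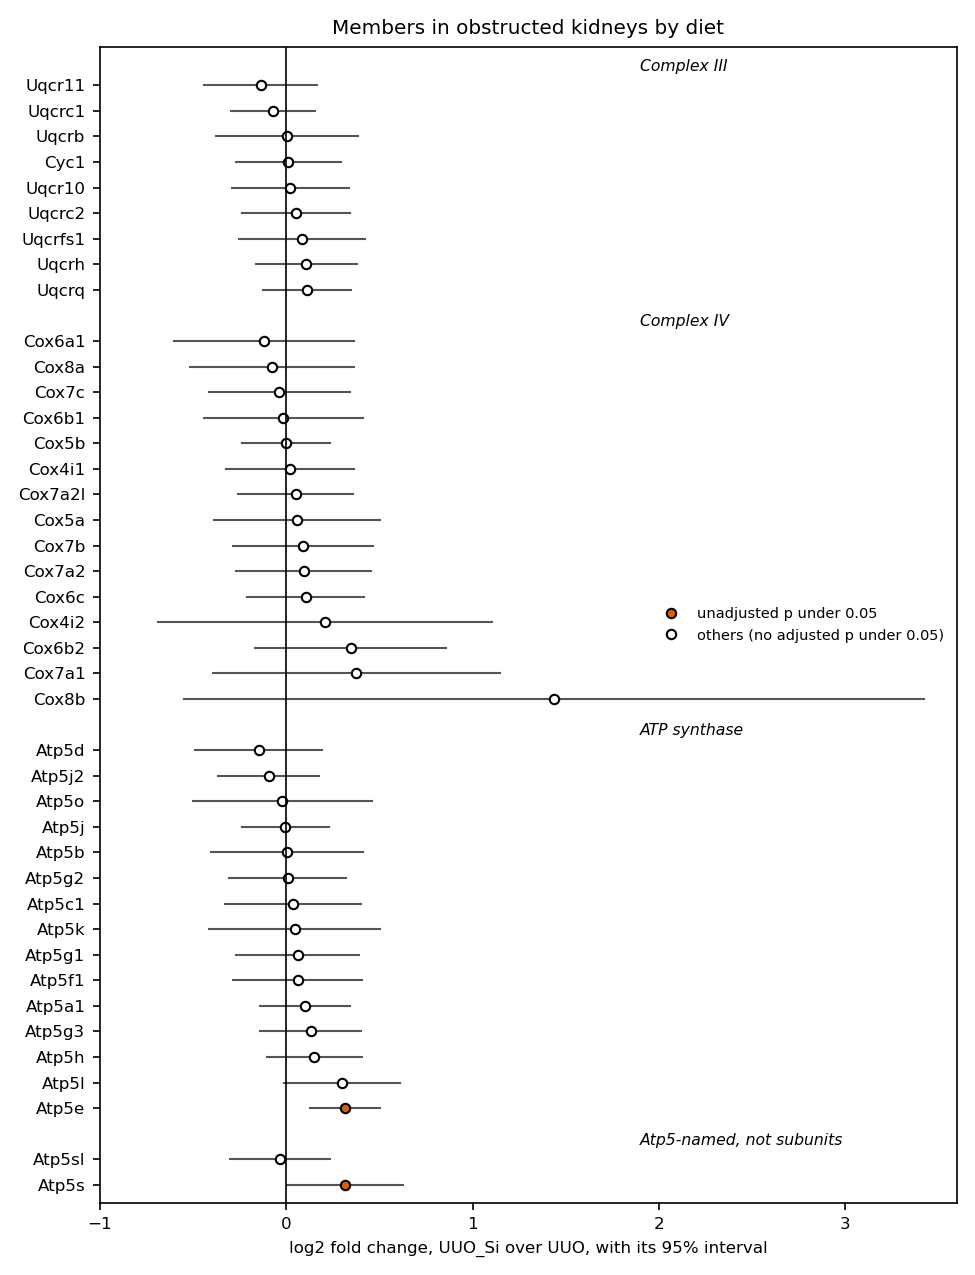
Log2 fold changes of the 41 tested members between the diets (UUO_Si over UUO) with unadjusted 95% intervals. Filled points are Atp5e and Atp5s, the 2 with unadjusted p under 0.05, and no member passed after adjustment.

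Across the obstructed libraries the members' levels tended to be high or low together. UUO_Si replicate 6 was the highest of the 12 obstructed libraries in 32 of 41 members, UUO_Si replicate 5 the lowest in 18 and UUO replicate 2 the lowest in 14. The summed level of the members was 2498 to 4587 CPM in UUO_Si and 2490 to 4020 CPM in UUO, against 7117 to 7852 CPM in sham. Among obstructed libraries the sum was highest in UUO_Si replicate 6, then in UUO replicate 6 (4020 CPM) and UUO replicate 5 (3853 CPM). These are the obstructed libraries with counts in most receptor genes and with sample code series of their own. They also had the highest sums of 5 fat cell markers. These were 146 CPM in UUO_Si replicate 6, 160 CPM in UUO replicate 6 and 43.9 CPM in UUO replicate 5. The other obstructed libraries had 0.209 to 13.4 CPM and sham 1.43 to 8.79 CPM. None of the 5 fat cell markers was called. The part of these features in the members' levels was not tested. The sum of 10 proximal tubule markers tended to be high where the members' sum was, at 788 to 2197 CPM in UUO_Si and 1005 to 1862 CPM in UUO, against 15488 to 18794 CPM in sham. Not every library followed. UUO replicate 4 was above UUO_Si replicate 2 in the members' sum (3341 against 3297 CPM) and below it in the markers' (1104 against 1433 CPM). None of these markers was at 0 in any group. UUO_Si replicate 6 had the highest of the 12 marker sums and UUO_Si replicate 5 the lowest. All 10 fell in both comparisons against sham, with medians of -3.50 in UUO_Si and -3.56 in UUO, and of 10 distal tubule markers 9 fell in each, with medians of -2.20 and -2.49, while 1 rose in UUO_Si. The distal sum was also lowest in UUO_Si replicate 5 (1474 CPM). In UUO, however, it was lowest in replicate 6 (1535 CPM), where the members' sum was the highest of that group. The 8 macrophage markers all rose on either diet, with sums of 755 to 1230 CPM in UUO_Si and 816 to 1117 CPM in UUO, against 114 to 156 CPM in sham, as did the 6 fibroblast markers. In whole tissue, fewer cells of a type and less RNA per cell cannot be told apart, and the part of these cell changes in the members' fall was not tested.

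**Figure D5:**
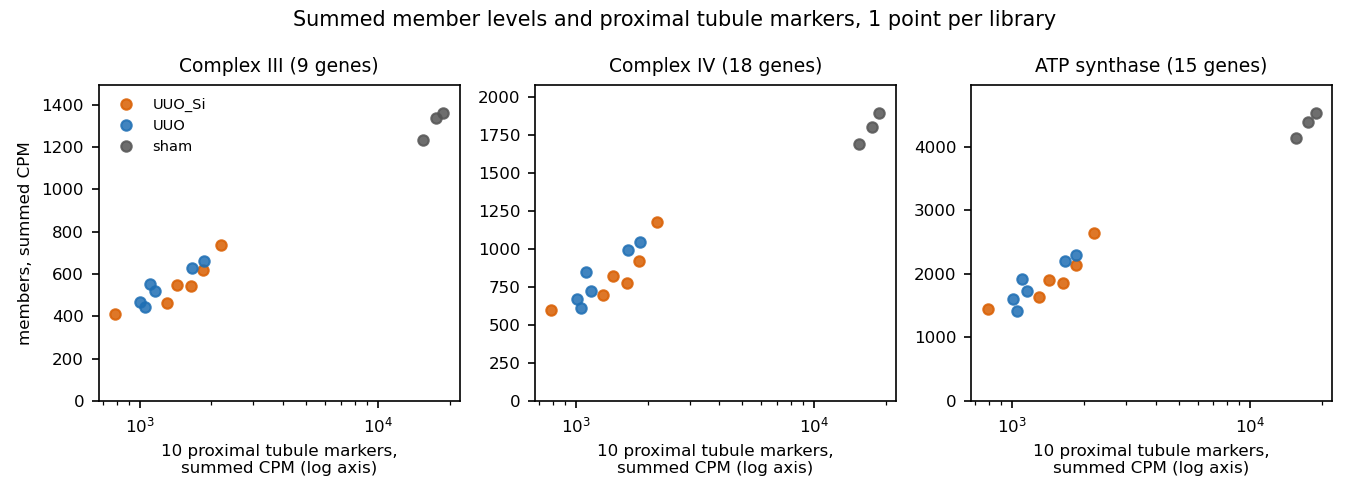
Summed CPM of the complex III, complex IV and ATP synthase members in each library (vertical axis, from 0) against the summed CPM of 10 proximal tubule markers (horizontal log axis). The 3 sham libraries lie apart at 15488 to 18794 CPM of markers, and among the 12 obstructed libraries UUO_Si replicate 6 is at the upper end of both axes.

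Genes that work beside these complexes were examined by list. Over all genes tested 25.5% fell and 27.2% rose in UUO_Si, and 26.4% fell and 27.5% rose in UUO. Of 36 complex I subunit genes 33 fell on either diet (medians -1.12 in UUO_Si and -1.09 in UUO), among them Ndufs1 (-1.31 ± 0.09 and -1.48 ± 0.09), and of 4 complex II genes 3 fell. Cycs, which encodes the cytochrome c that links complexes III and IV, fell to 79.5 ± 14.7 CPM in UUO_Si and 69.2 ± 10.5 CPM in UUO, against 197 ± 3.66 CPM in sham (SD; log2 fold change -1.31 ± 0.14 and -1.51 ± 0.14). Of 20 assembly factors for complex IV 9 fell in each group (medians -0.41 and -0.40), such as Lrpprc (-1.13 ± 0.09 and -1.23 ± 0.09), which stabilises mitochondrial mRNAs, Taco1 (-1.40 ± 0.18 and -1.48 ± 0.18), needed to translate COX1, and the haem enzymes Cox10 (-0.97 ± 0.12 and -0.96 ± 0.11) and Cox15 (-0.79 ± 0.09 and -0.84 ± 0.09). Of 6 for complex III 2 fell in UUO_Si and 3 in UUO, with Bcs1l, which inserts the Rieske protein, at -0.61 ± 0.19 and -0.76 ± 0.18; in UUO_Si that call was lost without sham replicate 1 (adjusted p = 0.105). Atpif1, the inhibitor that stops ATP synthase from running backwards, fell by -1.05 ± 0.11 and -1.07 ± 0.11. Of the carriers, Slc25a5 (an ADP/ATP carrier) fell by -1.52 ± 0.21 and -1.60 ± 0.21 and Slc25a3 (phosphate) by -0.63 ± 0.17 and -0.67 ± 0.17, while Slc25a4, the other ADP/ATP carrier listed, was not called (-0.18 ± 0.15 and -0.15 ± 0.15) but was called lower without the 4 libraries named above (-0.31 and -0.35; adjusted p = 0.0329 and 0.0219) and without UUO_Si replicate 6 and UUO replicates 5 and 6 (-0.26 and -0.30; adjusted p = 0.0478 and 0.0320). On the outer membrane and in protein import 3 of 10 genes fell and 2 rose in UUO_Si, near the shares over all genes, against 4 and 2 in UUO. Of these Vdac1, the main channel, fell (-0.99 ± 0.11 and -1.19 ± 0.11) and Vdac3, another channel, rose (0.52 ± 0.17 and 0.49 ± 0.17) but was not called without sham replicate 1 or 2 (adjusted p = 0.0514 to 0.0758) or, in UUO, without UUO_Si replicate 6 and UUO replicates 5 and 6 (0.34; 0.0547). The difference between these lists was not tested.

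Ndufa4, a complex IV subunit whose symbol lies outside the set, fell on either diet, while its relative AA467197 rose. Ndufa4 lay at 27.6, 39.9 and 50.2 CPM in UUO_Si and 23.5, 31.0 and 33.2 CPM in UUO, against 72.8, 59.8 and 55.3 CPM in sham. It fell without overlap, by -0.68 ± 0.15 and -1.08 ± 0.15 (adjusted p = 0.00119 and 1.01e-05), and between the diets it was at 0.41 ± 0.13 (unadjusted p = 0.00495, adjusted p = 0.999). AA467197 encodes the mouse NMES1 protein, which is known to take the place of NDUFA4 in complex IV during inflammation. It had 97 counts over the UUO_Si libraries and 130 over the UUO libraries, against 2 in sham, both of those in sham replicate 3, 1 of the 4 libraries named above. Its ratio to sham was 15.4 in UUO_Si (95% counting interval 4.16 to 129) and 14.9 in UUO (4.04 to 124). It was called higher in both (adjusted p = 0.000753 and 0.000861), and also with any 1 library left out, but the fitted log2 fold change then ran from 3.20 to 7.22 in UUO_Si and from 3.11 to 7.13 in UUO. Ndufa4l2, a relative induced by low oxygen and found in pericytes, rose in UUO (1.06 ± 0.37; adjusted p = 0.0219) and was not called in UUO_Si (0.73 ± 0.37; adjusted p = 0.109). In UUO its call was lost without the 4 libraries named above (0.78; adjusted p = 0.109), without UUO replicates 5 and 6 and UUO_Si replicate 6 (0.78; 0.0725), without sham replicate 1 or 3 (0.0854 and 0.0532) and with limma-voom (0.124). Of 10 hypoxia-inducible genes, Ndufa4l2 among them, 5 fell and 1 rose in UUO_Si and 5 fell and 2 rose in UUO. Over all genes 25.5% fell and 27.2% rose in UUO_Si, and 26.4% and 27.5% in UUO. Of the 10 genes 8 were below 0 in each comparison, with medians of -0.56 and -0.69. Egln3, an oxygen-sensing enzyme, rose (1.29 ± 0.22 and 0.99 ± 0.22), and Vegfa, the vessel growth factor, fell (-1.99 ± 0.20 and -2.06 ± 0.20).

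Of 9 regulators of nuclear mitochondrial genes 4 fell on either diet, where 25.5% of all genes fell in UUO_Si and 26.4% in UUO, and 5 were not called. Ppargc1a, the coactivator that drives the making of mitochondria, lay at 78.4, 95.1 and 120 CPM in UUO_Si and 74.5, 77.9 and 88.4 CPM in UUO, against 344, 417 and 295 CPM in sham. It fell by -1.84 ± 0.12 in UUO_Si and -2.14 ± 0.12 in UUO, and between the diets it was at 0.31 ± 0.10 (unadjusted p = 0.00934, adjusted p = 0.999). Its relative Ppargc1b (-1.74 ± 0.21 and -1.88 ± 0.20), the nuclear receptor Esrra (-1.38 ± 0.14 and -1.48 ± 0.14), through which it acts, and Polrmt (-1.59 ± 0.13 and -1.55 ± 0.13), the mitochondrial RNA polymerase, also fell. The DNA-binding factors Nrf1 (-0.03 ± 0.16 in UUO_Si and -0.07 ± 0.16 in UUO), Gabpa (0.13 ± 0.09 and 0.09 ± 0.09), an ETS factor that overlaps Atp5j on the other strand, and Yy1 (-0.15 ± 0.11 and -0.11 ± 0.11) were not called. Without sham replicate 3, Yy1 was called lower in both (-0.30 and -0.25; adjusted p = 0.0172 and 0.0378), and in UUO_Si also without the 4 libraries named above (-0.28; adjusted p = 0.0188). Not called either were Tfam and Tfb2m, which act on mitochondrial DNA. Messenger RNA of a factor does not measure its activity.

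What the members share in sequence and position also bears on how far each value can be trusted. Of the 44 members 14 have a pseudogene copy of at least 95% identity over 100 bases or more, and 13 overlap a gene on the other strand, which leaves 22 with neither. The strand setting used in counting is not given in the sources used here, so reads of such neighbours cannot be told apart. Among the 20 tested members with neither, 16 fell and 1 rose in UUO_Si and 19 fell and 1 rose in UUO, with medians of -1.24 and -1.39. Among the 21 with either, 18 fell and 1 rose in UUO_Si and 19 fell and 1 rose in UUO, with medians of -0.93 and -0.94. Over the 41 tested members the signed log2 fold change had Spearman's rho of -0.15 in UUO_Si and -0.02 in UUO with transcript length. With the level in sham rho was -0.21 and -0.08, where a negative rho means a more negative fold change at higher levels. These are descriptions across genes of the same libraries, and genes are not independent replicates.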

How the data were processed

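Kidney RNA from mice was sequenced in 15 libraries. Per the labels' protocols, total RNA from RNAlater was extracted with RNeasy and made into stranded libraries with a SMARTer Pico kit. The authors deposited a table of expected counts (estimated reads per gene, partly fractional) for 24421 gene symbols. The submitters' processing notes name the build mm10 and the tools TopHat2 2.1.1 and Cuffdiff 2.2.1. How reads were counted, and with which strand setting and annotation, is not stated in those notes or in the labels.

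The expected counts were rounded. Genes passing edgeR's filter (minimum count 10, 16752 genes) were scaled by TMM and tested with all 15 libraries in a quasi-likelihood fit with a mean per group (edgeR 4.0.16 under R 4.3.3, robust), with Benjamini-Hochberg adjustment over all genes and calls at 0.05. Levels are CPM, errors of log2 fold changes are standard errors, and intervals are 95%. Isoform ratios used a pseudocount of 0.5 counts and exact permutation tests (scipy 1.17.1). The AA467197 intervals cover counting error only. Positions, transcript lengths and pseudogene copies came from GENCODE M21 on GRCm38, the build that corresponds to mm10, matched by symbol (98.5%), and promoters from RefSeq (GRCm38.p6). The edgeR fit was tested on simulated counts, in which far fewer genes changed than were called against sham here. The ratio tests, the promoter search and the rule for marking libraries were not tested in this way.

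The members, gene lists and tests were chosen with earlier results of these data known, so agreement with those results is no independent support. Named members were those with the highest sham level, the largest and the smallest change of each complex, isoform pairs, members called higher or not called in UUO, and those with unadjusted p under 0.05 between the diets; other members were named for their role, after their values were seen. Of other lists, up to 4 genes with the smallest p in UUO against sham were named, with Vdac3, Nrf1, Gabpa and Yy1 chosen after their values were seen. Alternatives were other scalings, filters and rounding, DESeq2 1.42.0, limma-voom (limma 3.58.1), removal of ribosomal RNA and haemoglobin genes, a length trend removed, fits of only the groups compared, a replicate block, and libraries left out.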

Additional observations from a re-analysis of the deposited data

Results flagged for a closer look

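A library was marked where, in a group of 6, the gap between an extreme value and the nearest of the others was large against the whole range (Dixon's criterion at 95%). Chance alone marks about 1 in 20 groups, and 6 values were marked in 62 groups examined. Of these 4 were in UUO_Si replicate 6. Cox6a1 was at 69.2 CPM there, against 29.8 to 43.1 CPM in the other UUO_Si libraries, Cox7a2l at 103 CPM against 59.7 to 75.7, and Cox8b at 2.75 CPM against 0 to 0.503. Cox6b2 was low in the same library, at 2.50 CPM against 4.67 to 5.55. Cox8b was also high in UUO replicate 6, at 0.827 CPM against 0 to 0.254 in the other UUO libraries. The Cox4i2 to Cox4i1 log2 ratio was low in UUO_Si replicate 5, at -7.77 against -7.32 to -7.06, on 3 counts of Cox4i2. UUO_Si replicate 6 and UUO replicate 6 both belong to the 4 libraries with counts in most olfactory and vomeronasal receptor genes.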

How the results depend on the processing

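Counts of members called stayed within 1.5 times the main counts under every setting run, from 34 to 40 against sham in UUO and from 33 to 39 in UUO_Si, and were 0 between the diets. The count of members called higher in UUO, 2, was 0 with limma-voom or without sham replicate 2. No member, ratio or other named gene that was called changed sign. Among those not called, Gabpa in UUO turned to -0.021 with the length trend removed, and values near 0 crossed it, such as Atp5g2 in UUO (-0.088 to 0.048 with a library left out) and the Cox7a1 to Cox7a2 ratio in UUO (-0.11 to 0.51). The count of isoform ratios called, 8 of 21, was 0 without the 4 receptor-gene libraries and 0 with the replicate block (same-numbered libraries as 3 pairs, smallest p 0.25). It ran from 0 to 8 with a library left out, at 0 without UUO_Si replicate 2, 3 or 4 or any sham library. With 2 sham libraries against 6 the smallest p is 0.0357, so the calls could not pass there. The same holds without the 4 receptor-gene libraries, where the smallest p is higher still. Deviations of same-numbered libraries had correlations of -0.39 to 0.19, so replicate numbers did not pair the samples, except for replicate 6. There UUO_Si and UUO correlated at 0.75, and both are among the 4 receptor-gene libraries. In the fit with the replicate block 39 members were called in UUO and 37 in UUO_Si. That fit no longer called Cox7a2l (0.37, adjusted p = 0.0651), Ndufa4l2 (0.59, 0.145) or Vdac3 (0.40, 0.0748) in UUO. It did call Cox8b in UUO_Si (-2.98, adjusted p = 0.0139) and Sdhd in UUO (-0.59, 0.0428). Calls of members with few counts or small changes moved most. Limma-voom did not call Cox6b2 (adjusted p = 0.0535) or Cox7a2l (0.0623) in UUO, and the fall of Cox8b in UUO was lost without any filter (adjusted p = 0.0674). The fall of Cox6b1 was lost without sham replicate 1 in both groups (adjusted p = 0.0644 in UUO_Si and 0.0694 in UUO). The cause of the shifts in calls of single genes was not tested. With 3 sham libraries, genes under about 10 counts per library gave wide intervals.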
